A study of Mus musculus with 10 samples.

Results

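The interferon response genes are a set of 36 named genes that cells switch on, or use, when interferon is present. They were chosen by name, not by any measured value, and comprised 4 transcription factors, 6 sensors of foreign nucleic acid and their helpers, 12 antiviral effectors, 2 genes of the ISG15 modifier system, 5 interferon-inducible GTPases, 3 antigen processing genes and 4 other induced genes. Of these, 35 had a probe among the 19270 genes of the normalized table, and Xaf1 did not. The study ran 1 array for each of 10 tumors from mice, to find genes that go with metastasis. It compared 5 tumors grouped as metastatic sarcomatoid carcinomas, a type with spindle-shaped cells, with 5 adenocarcinomas. By its methods, lines derived from adenocarcinoma did not metastasize after tail vein injection, so tumor type and metastatic behaviour coincide in the groups. All mice were of C57BL/6 background, and Cre came from the MMTV promoter, which is active in mammary epithelium. The 5 adenocarcinomas were mammary tumors of Pik3caH1047R;Trp53R270H;MMTV-Cre mice and carried the numbers 105, 131, 470, 17 and 85. The sarcomatoid group held mammary tumors 323, 307 and 594 and lung tumors that grew after tail vein injection of a cell line of tumor 323 and of a cell line of tumor 307. By the study's methods, one of these pairs came from a Pik3caH1047R;Trp53R270H;MMTV-Cre mouse and the other from a Pik3caH1047R;MMTV-Cre mouse with a spontaneous Trp53R245H mutation, while the remaining mammary tumor came from a Trp53R270H;MMTV-Cre mouse. The labels do not say which pair is which. The sarcomatoid group therefore held 3 tumor origins in 5 arrays, and each lung tumor stands for 1 cell line. It also held 2 labels. Tumors 323 and 307 and their lung tumors are labelled sarcomatoid adenocarcinoma, and tumor 594 alone sarcomatoid carcinoma.

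Interferons are secreted proteins that warn neighbouring cells of infection or damage. Type I interferons, such as interferon beta, act through a receptor whose kinases JAK1 and TYK2 activate STAT2, and this joins IRF9 in a complex on a DNA element called the ISRE. Interferon gamma, made mostly by T and NK cells, has a receptor of its own and acts mainly through a different element called the GAS. Interferon response genes are switched on in tumor cells as well as in the leukocytes that enter a tumor, and bulk tumor RNA mixes the 2 sources. In such RNA, fewer cells of a type and less RNA per cell cannot be told apart.

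Values are log2 ratios of tumor RNA over a common reference, as the authors normalized them, and a difference between groups is a difference of log2 ratios. Red over green was read as tumor over reference, because the green signal varied less between arrays (mean SD 0.737 on the log2 scale) than the red (0.975). The labels, however, name the green dye for the tumor RNA. The direction was taken from the study's own account of these tumors, in which epithelial genes are lower and genes of the mesenchymal switch are higher in the sarcomatoid group. Read as red over green, sarcomatoid minus adenocarcinoma was -3.32 for Krt18 (SE 1.26), -2.86 for Epcam (SE 1.47) and -3.53 for Dsp (SE 1.26), all epithelial genes, and 2.32 for Zeb2 (SE 0.58), a repressor of epithelial genes. With the sign turned, each of these would run the other way. Of the 35 genes, 34 were well above background on all 10 arrays and Mx1 was on 9, and no probe was saturated. The share of all probes above background ran from 52.2% in tumor 85 to 83.0% in tumor 105. By their headers, the scanner files fell into 3 scan batches that differ in the version of the extraction protocol. Tumor 323 was the only one in batch 1. Batch 2 comprised sarcomatoid tumors 307 and 594 with adenocarcinomas 105 and 470, and the lung tumors were in batch 3 together with adenocarcinomas 131, 17 and 85. Tumor 470, labelled adenocarcinoma, had a median log2 ratio of -1.70 over 10 epithelial markers and of 1.26 over 10 fibroblast and mesenchymal markers, against 3.58 to 3.94 and -2.31 to 0.08 in the other adenocarcinomas. Results that turn on tumor 470 are given with and without it.

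The promoters were searched for the letters of both elements, and a match is a description of the sequence, not a bound site. RefSeq promoter windows (build GRCm38.p6, 250 bases before to 50 after a start site) were at hand for 28 of the 36 genes. The ISRE was searched as GAAANNGAAA on both strands and the GAS as TTCNNNGAA, which reads the same on both strands, and a match may overlap another. An ISRE match lay in the windows of 15 of the 28 genes (53.6%), against 3.99% of all 27025 genes with a window, and a GAS match in those of 8 (28.6%), against 9.55%. Both were present in 4 of the 28 and neither in 9. The 250 bases before the start are shown, 5′ to 3′ on the gene's strand, for 3 genes chosen to show matches among those that followed the others closely across the tumors (r of 0.909 or more with the median of the rest) and for the 3 that followed them least, with motif matches in capitals. A match did not go with following closely in every gene, since the windows of Ifi44 (r = 0.966) and Oasl2 (0.939) hold neither motif. Isg15 (chr4:156200819-156201068, minus strand) holds 3 overlapping ISRE matches, Ifit1 (chr19:34640639-34640888, plus strand) 2, and Oas1a (chr5:120907526-120907775, minus strand) 2 overlapping ISRE matches close to the start and a GAS match further out. Irf1 (chr11:53769764-53770013, plus strand, the window of its 2 that held a match) and Psmb8 (chr17:34197945-34198194, plus strand) hold a GAS match and no ISRE, and Irgm1 (chr11:48871421-48871670, minus strand) holds 2 overlapping ISRE matches.
Isg15: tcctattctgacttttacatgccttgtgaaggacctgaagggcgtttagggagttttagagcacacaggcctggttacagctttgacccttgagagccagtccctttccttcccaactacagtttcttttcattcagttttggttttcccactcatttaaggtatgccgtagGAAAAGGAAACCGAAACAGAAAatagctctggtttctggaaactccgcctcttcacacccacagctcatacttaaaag
Ifit1: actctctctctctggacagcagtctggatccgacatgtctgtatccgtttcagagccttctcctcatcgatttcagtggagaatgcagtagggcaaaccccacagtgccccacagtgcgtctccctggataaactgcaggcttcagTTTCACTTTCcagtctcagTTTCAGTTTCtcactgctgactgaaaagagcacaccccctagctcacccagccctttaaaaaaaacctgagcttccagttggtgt
Oas1a: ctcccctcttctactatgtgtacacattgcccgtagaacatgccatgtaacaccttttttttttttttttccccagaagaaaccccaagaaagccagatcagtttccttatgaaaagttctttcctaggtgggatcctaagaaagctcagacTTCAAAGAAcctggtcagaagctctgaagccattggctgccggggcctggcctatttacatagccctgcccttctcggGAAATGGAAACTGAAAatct
Irf1: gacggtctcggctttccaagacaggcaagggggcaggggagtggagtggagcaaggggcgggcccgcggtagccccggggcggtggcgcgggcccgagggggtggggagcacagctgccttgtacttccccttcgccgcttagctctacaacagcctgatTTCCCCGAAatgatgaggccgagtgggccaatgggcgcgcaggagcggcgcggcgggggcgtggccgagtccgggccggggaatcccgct
Psmb8: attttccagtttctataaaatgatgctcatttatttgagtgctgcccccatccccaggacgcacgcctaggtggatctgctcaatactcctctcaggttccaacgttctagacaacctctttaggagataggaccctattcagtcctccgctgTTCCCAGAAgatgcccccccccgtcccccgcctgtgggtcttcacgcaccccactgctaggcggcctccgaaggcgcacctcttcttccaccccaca
Irgm1: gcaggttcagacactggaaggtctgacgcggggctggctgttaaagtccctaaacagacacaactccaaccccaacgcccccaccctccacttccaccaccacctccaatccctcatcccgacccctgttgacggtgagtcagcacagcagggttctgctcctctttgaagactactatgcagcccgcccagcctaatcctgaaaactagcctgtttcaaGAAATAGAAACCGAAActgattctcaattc

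The level of the interferon response genes varied widely between tumors of the same group. The mean of the tumor medians was 0.94 ± 0.72 (SD, n = 5) in sarcomatoid carcinoma and 0.49 ± 0.79 in adenocarcinoma. Their median level was highest in sarcomatoid tumor 594 (1.63), adenocarcinoma 131 (1.41), the lung tumor of 307 (1.31) and tumor 323 (1.25), and it was 0.77, 0.74 and 0.71 in tumors 470, 17 and 307. It was lower in tumor 105 (0.26), in the lung tumor of 323 (-0.20) and in adenocarcinoma 85 (-0.72). Both groups thus held tumors at each end, while the median of all probes lay between -0.05 and 0.07 in every tumor. Tumor 85 was the lowest of the 10 for 26 of the 35 genes, against 10.3% of all probes and 9.1% of the probes well above background on all 10 arrays. Its low share of probes above background (52.2%) goes with these low values, and its part in them was not tested. The lung tumor of 323 was the lowest for a further 5 genes, against 9.69% of all probes. Tumor 594 was the highest for 12 of the 35, tumor 131 for 9 and tumor 323 for 7, against 6.70%, 15.3% and 14.3% of all probes.

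**Figure D1:**
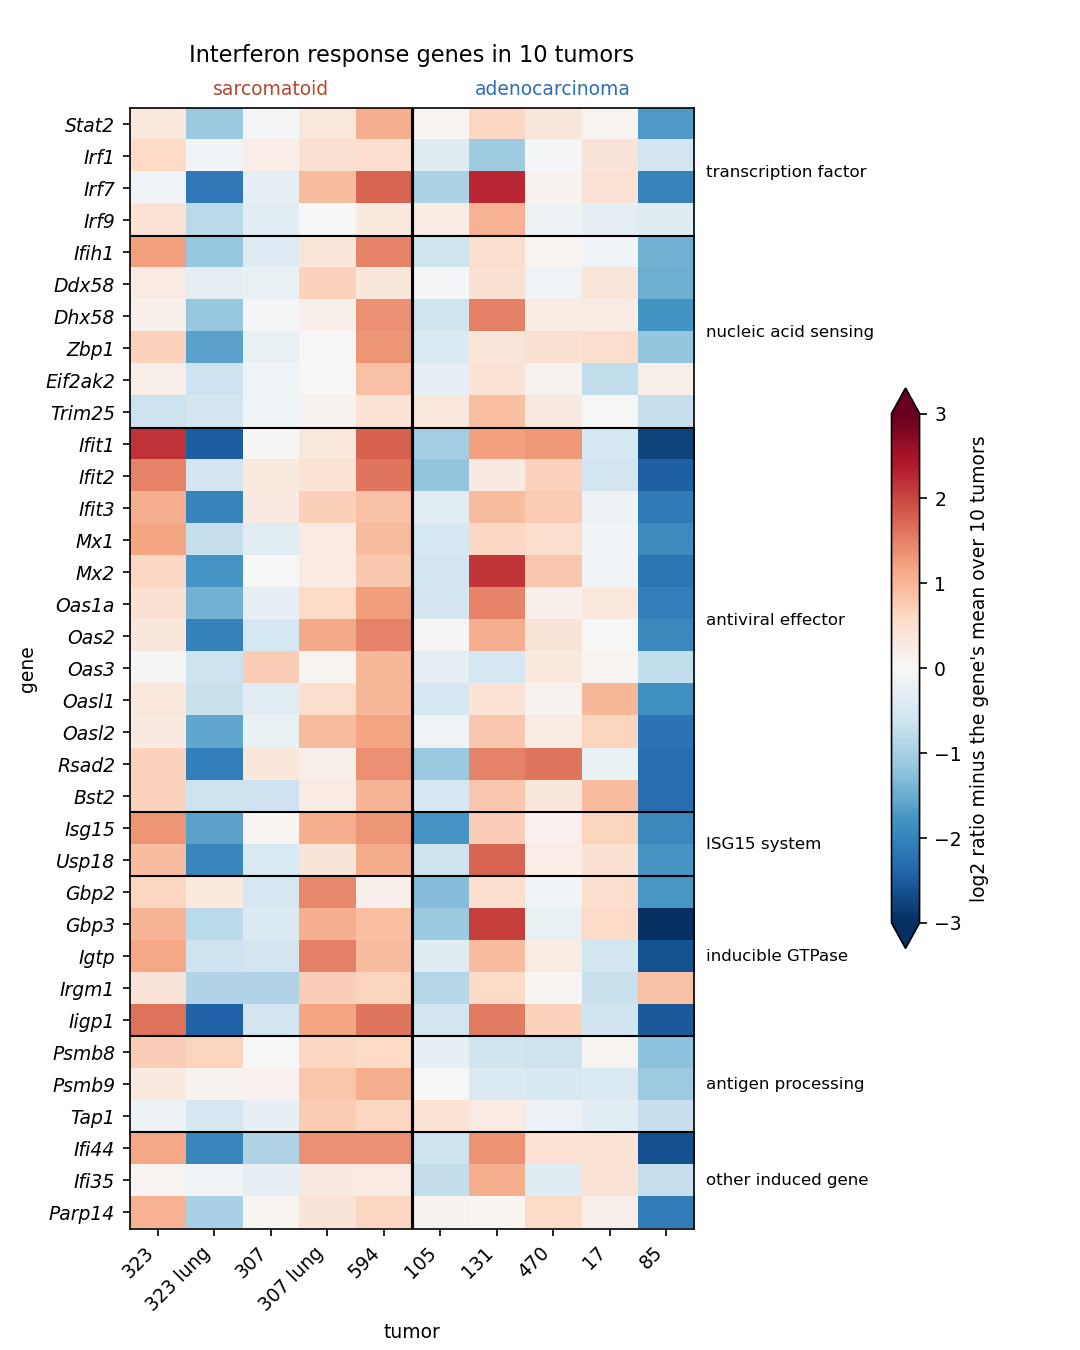
Log2 ratio of each of 35 interferon response genes (rows, grouped by role) in each of 10 tumors (columns), minus the gene's mean over the 10 tumors; red is above and blue below that mean. Tumor 85 and the lung tumor of 323 are blue in most rows, and Irgm1, Irf1 and Psmb8 follow the other genes least.

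The spread of these genes was wide. Their SD over the 10 tumors had a median of 0.95 on the log2 scale, from 0.48 (Eif2ak2) to 1.71 (Ifit1), against a median of 0.57 over all probes, and 29 of the 35 lay above that median. The genes also moved together. Over their 595 pairs the median Pearson correlation across the 10 tumors was 0.730 and the median Spearman correlation 0.673, and 97.98% of the Pearson values were above 0. Without tumors 85 and the lung tumor of 323, the pair of tumors with the lowest medians, the medians were 0.565 and 0.524 over 8 tumors and 91.6% were above 0. These are descriptions over tumors that share scan batches and, for tumors 323 and 307, origins. Oas1a, an enzyme that makes the signal for RNA decay, followed the median of the other genes most closely (r = 0.972), then Ifi44 (0.966) and Iigp1 (0.955). Irgm1 (0.319), Irf1 (0.353) and Psmb8 (0.426) followed it least.

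**Figure D2:**
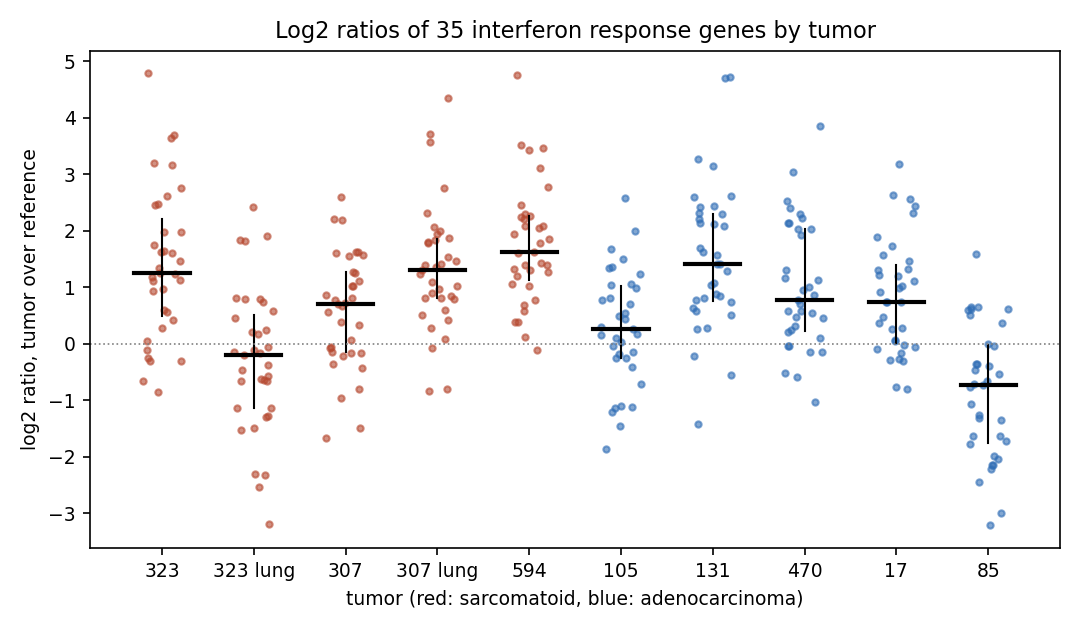
Log2 ratios (tumor over reference) of 35 interferon response genes in each of 10 tumors; each point is 1 gene, the wide bar is the median and the thin line spans the quartiles. The medians run from -0.72 in tumor 85 to 1.63 in tumor 594, and both groups hold high and low tumors.

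No interferon response gene passed the test between sarcomatoid carcinoma and adenocarcinoma. In limma's fit over 40196 probes, 0 of the 35 genes had an adjusted p under 0.05, as had 0 probes of the table (0%), and the adjusted p of the 35 ran from 0.337 to 0.999. At an unadjusted p under 0.05 there were 3 genes, Psmb8, Psmb9 and Irf1, all higher in sarcomatoid carcinoma, which is 8.57% of the 35 against 9.23% of all probes. By sign, 32 genes were higher in sarcomatoid carcinoma and 3 lower (Trim25, Irf9 and Mx2), with a median difference of 0.30 against -0.00 over all probes. Gene differences ran from -0.32 (Trim25) to 1.30 (Ifit2). This count takes 1 probe per gene. Among 21 further probes, 15 differed in the direction of the probe shown and 6 in the opposite one. Only 11 of the 21 correlated with it at r above 0.8. Of the 6, those of Ifi44 (-0.02), Irf9 (0.04) and Ddx58 (-0.02) were well above background on 10, 9 and 9 arrays. Those of Dhx58, Oas2 and Irgm1 were so on 4, 3 and 0. The groups did not overlap for 1 gene, Psmb9, and for 1.33% of all probes.

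**Figure D3:**
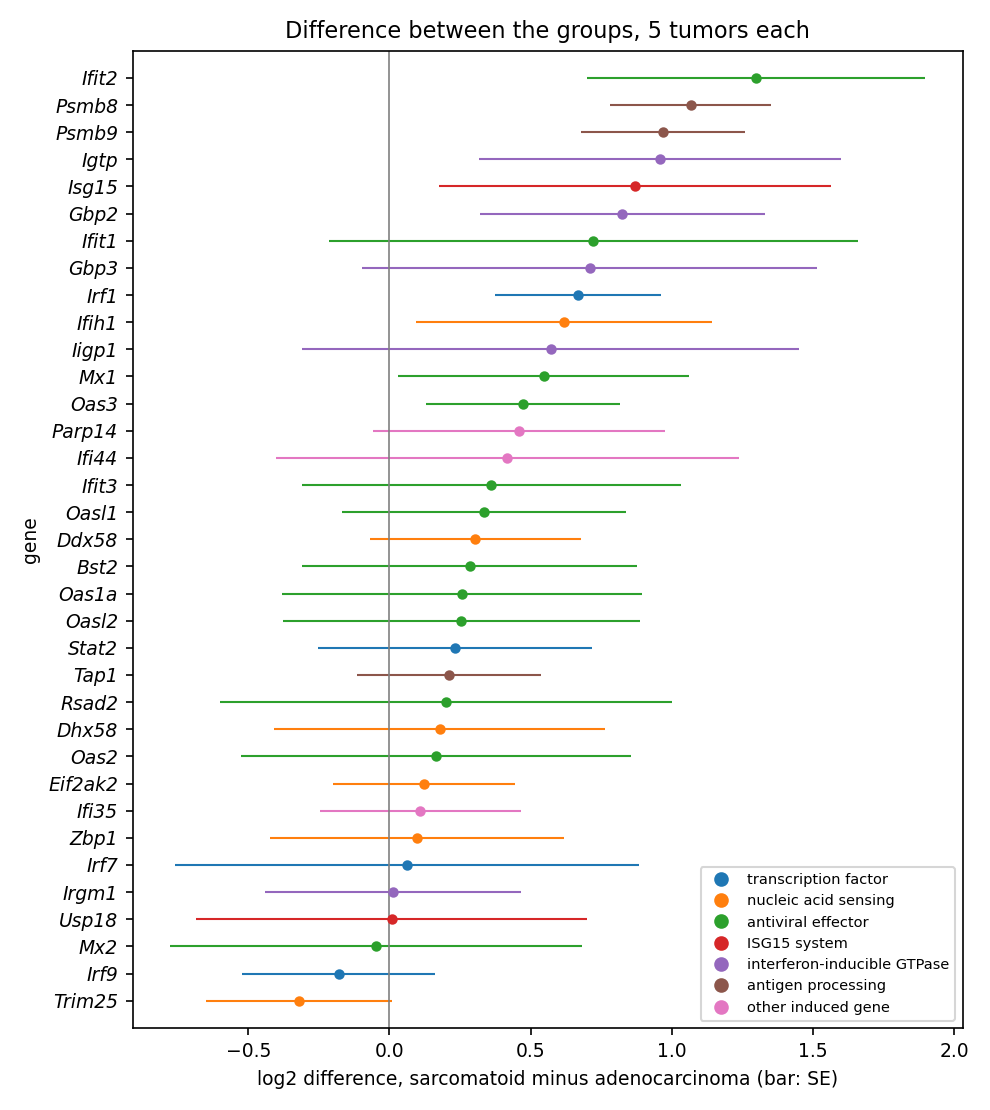
Difference of the mean log2 ratio between 5 sarcomatoid and 5 adenocarcinoma tumors for each of 35 genes, ordered by size and coloured by role; points are the fitted differences and bars 1 SE. Psmb8, Psmb9 and Irf1 are far from 0 relative to their SE, and Usp18 (0.01), Irgm1 (0.01) and Irf7 (0.06) lie close to it.

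The median difference moved with single tumors. Without adenocarcinoma 85 the median difference was -0.02, with 16 of 35 genes higher in sarcomatoid carcinoma. Without the lung tumor of 323 it was 0.69, with 34 higher. Within scan batch 2 it was 0.52 (33 higher) and within scan batch 3 it was -0.07 (14 higher). Without tumor 470, 1.54% of all probes had a limma adjusted p under 0.05, but none of the 35 genes did. The lowest adjusted p among them was then 0.142 (Psmb8), and 4 genes had an unadjusted p under 0.05 (Psmb8, Psmb9, Ifit2 and Irf1), as had 14.2% of all probes.

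The transcription factors carry the interferon signal to the genome. Irf1, an early target of interferon gamma, was at 1.12 in tumor 323, 0.45 in its lung tumor, 0.73 in 307, 0.98 in its lung tumor and 1.02 in 594, and at 0.15, -0.55, 0.47, 0.92 and -0.04 in adenocarcinomas 105, 131, 470, 17 and 85. Its sarcomatoid tumors were close together (0.86 ± 0.27, SD, n = 5) and overlapped 2 of the adenocarcinomas (0.19 ± 0.55). The difference of 0.67 (SE 0.30) had a limma adjusted p of 0.526 and an exact permutation p of 0.0397, two-sided. Irf7, which amplifies type I interferon production, had the widest spread of the 4, from -2.30 in the lung tumor of 323 and -2.14 in tumor 85 to 1.60 in tumor 594 and 2.12 in tumor 131. The groups overlapped throughout, and its difference was 0.06 (SE 0.82). Irf9, the DNA-binding partner of STAT2, was 0.18 lower in sarcomatoid carcinoma (SE 0.34). Stat2 was at 1.06 in tumor 594 and at -1.72 in tumor 85, and its difference was 0.23 (SE 0.48). Without tumor 85, 1 of the 4 factors, Irf1, had a higher mean in sarcomatoid carcinoma.

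The sensors detect viral RNA or DNA. Ifih1 (MDA5), Ddx58 (RIG-I) and Dhx58 (LGP2) are RNA helicases, Zbp1 binds left-handed nucleic acid, Eif2ak2 (PKR) stops translation when it meets double-stranded RNA, and Trim25 is a ubiquitin ligase that activates RIG-I. Of the 6, 5 were higher in sarcomatoid carcinoma, as were 49.8% of all probes, with differences from 0.10 (Zbp1, SE 0.52) to 0.62 (Ifih1, SE 0.52). Without tumor 85, 2 of the 6 were higher (Ifih1 and Eif2ak2). Ddx58 was at 1.34, 0.80, 0.87, 1.79 and 1.43 in tumors 323, 323 lung, 307, 307 lung and 594, and at 1.06, 1.56, 0.997, 1.45 and -0.37 in tumors 105, 131, 470, 17 and 85. Tumor 85 alone stood below the others. Trim25 had the lowest difference of all 35 (-0.32, SE 0.33), with sarcomatoid values from -0.66 to 0.39 and adenocarcinoma values from -0.72 to 0.88.

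The antiviral effectors block viral replication in the cell. All 12 were lower in the lung tumor of 323 than in tumor 323, and 11 of the 12 had a higher mean in sarcomatoid carcinoma, as had 49.8% of all probes. Without tumor 85, 4 of the 12 did (Ifit1, Ifit2, Mx1 and Oas3), and the difference of Ifit1 was 0.12 (SE 0.89). Ifit1, which binds viral RNA lacking a host cap, had the widest spread of all 35 genes. It was at 3.16 in tumor 323, -1.49 in its lung tumor, 1.02 in 307, 1.31 in its lung tumor and 2.77 in 594, and at -0.04, 2.21, 2.29, 0.47 and -1.78 in adenocarcinomas 105, 131, 470, 17 and 85. Each group thus held a tumor near the bottom and a tumor near the top, and its difference of 0.72 had an SE of 0.94. Ifit2, of the same family, had the largest difference of the 35 (1.30, SE 0.60, limma adjusted p = 0.544, exact permutation p = 0.103). Its values were 1.97, -0.10, 0.77, 0.89 and 2.08 in the sarcomatoid tumors in the same order and -0.71, 0.75, 1.16, -0.09 and -1.99 in the adenocarcinomas, so the groups overlapped. A second Ifit2 probe gave 1.02 (SE 0.52). Rsad2 (viperin), an enzyme that makes a chain-terminating nucleotide, ranged from -1.14 to 2.29 in sarcomatoid carcinoma and from -1.36 to 2.52 in adenocarcinoma. Bst2 (tetherin), which holds budding virus at the cell surface, ranged from -0.38 to 1.27 and from -2.04 to 1.19, a difference of 0.28 (SE 0.59). Mx2, a dynamin-like GTPase, was at 3.28 in tumor 131 and -1.06 in tumor 85, both adenocarcinomas, and differed between the groups by -0.05 (SE 0.73). Laboratory strains such as C57BL/6 carry a defective Mx1 allele, and Mx1 RNA was measured here at 0.61 to 3.69. The other effectors (Ifit3, Mx1, Oas1a, Oas2, Oas3, Oasl1 and Oasl2) differed by 0.17 to 0.55.

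Isg15 is a ubiquitin-like protein that is joined to newly made proteins, and Usp18 removes it and also damps the type I receptor. Isg15 was at 1.63, -1.28, 0.38, 1.39 and 1.63 in the sarcomatoid tumors and at -1.45, 1.04, 0.45, 0.99 and -1.63 in the adenocarcinomas. It was low in the lung tumor of 323 and in tumors 105 and 85, and its difference was 0.87 (SE 0.69, limma adjusted p = 0.751). The mm7 coordinate that the scanner files give for its probe is on chromosome 17, whereas the RefSeq window of the gene is on chromosome 4, so a near-identical copy may share its signal. Usp18 was at -0.30, -3.18, -1.67, -0.83 and -0.11 in the sarcomatoid tumors and at -1.85, 0.51, -1.03, -0.77 and -2.99 in the adenocarcinomas. Its 2 lowest tumors were again the lung tumor of 323 and tumor 85, and its difference was 0.01 (SE 0.69). Without tumor 85, Isg15 alone of the 2 had a higher mean in sarcomatoid carcinoma.

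The interferon-inducible GTPases attack the vacuoles in which parasites and bacteria live. All 5 had a higher mean in sarcomatoid carcinoma, by 0.01 to 0.96, and their median difference was 0.71. Without tumor 85 all 5 means were still higher there, with a median difference of 0.23. Iigp1 (Irga6) ran from 0.74 in the lung tumor of 323 to 4.78 in tumor 323 and from 0.64 in tumor 85 to 4.73 in tumor 131. Gbp3, whose probe the array names Gbp4 but whose accession is that of Gbp3, was at 4.70 in tumor 131 and -0.46 in tumor 85. Igtp (Irgm3) was at 1.64, -0.15, -0.07, 1.99 and 1.39 in the sarcomatoid tumors and at 0.11, 1.41, 0.70, -0.06 and -2.14 in the adenocarcinomas, a difference of 0.96 (SE 0.64). Irgm1, a regulator of the other GTPases, departed from this pattern. It was at 1.11, -0.17, -0.17, 1.47 and 1.39 in the sarcomatoid tumors and at -0.14, 1.29, 0.77, 0.06 and 1.59 in the adenocarcinomas. Tumor 85 was its highest tumor, and tumor 85 was the lowest for the other 4 GTPases. A second Irgm1 probe correlated with the first at r = 0.998 over the 10 tumors, and the remaining one was well above background on 0 arrays. Gbp2 was at 2.75, 2.41, 1.61, 3.56 and 2.27 in the sarcomatoid tumors and at 0.81, 2.62, 2.03, 2.64 and 0.37 in the adenocarcinomas, and its difference was 0.83 (SE 0.50).

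The antigen processing genes cut and carry peptides for MHC class I. Psmb8 (LMP7) and Psmb9 (LMP2) are the interferon gamma-inducible subunits of the immunoproteasome, and Tap1 is one chain of the peptide transporter. The 3 genes lie side by side, with probes between chr17:32262147-32262206 (Psmb9) and chr17:32280725-32281049 (Psmb8) in mm7, and Psmb9 and Tap1 start head to head in overlapping promoter windows. Psmb8 was at 1.97, 1.91, 1.26, 1.86 and 1.84 in tumors 323, 323 lung, 307, 307 lung and 594, and at 0.99, 0.64, 0.58, 1.31 and -0.01 in tumors 105, 131, 470, 17 and 85. Only tumor 17 reached into the sarcomatoid range. The means were 1.77 ± 0.29 and 0.70 ± 0.49 (SD, n = 5 each), and the difference of 1.07 (SE 0.28) had a limma adjusted p of 0.337 and an exact permutation p of 0.0159. A second Psmb8 probe gave 0.99 (SE 0.28). Psmb9 was at 0.97, 0.79, 0.81, 1.53 and 1.78 in the sarcomatoid tumors and at 0.70, 0.26, 0.21, 0.27 and -0.39 in the adenocarcinomas, with every sarcomatoid tumor above every adenocarcinoma. Its difference was 0.97 (SE 0.29, limma adjusted p = 0.379), and its exact permutation p of 0.00794 is the smallest that 5 against 5 tumors can give. Adjusted over all probes, the lowest p of the exact test was 0.562. Both subunits kept an unadjusted limma p under 0.05 without tumor 85, without tumor 470 and without the lung tumor of 323. Of 40196 probes, 2808, 5702 and 3231 had such a p in these fits. The 2 genes stand out by their low p in these same data, and the fits share most tumors, so this is no separate support. The differences of Psmb8 and Psmb9 were 0.89 and 0.82 without tumor 85 and 1.04 and 0.97 without tumor 470. They were 1.03 and 1.07 without the lung tumor of 323. Tap1 differed by 0.21 (SE 0.33) and its groups overlapped. Of the 3 other induced genes, Ifi44 ran from -3.21 in tumor 85 to 0.79 in the lung tumor of 307, Parp14 from -0.53 in tumor 85 to 2.61 in tumor 323, and Ifi35 from -0.40 in tumor 105 to 1.41 in tumor 131, with differences of 0.42, 0.46 and 0.11. Without tumor 85 none of these 3 had a higher mean in sarcomatoid carcinoma.

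**Figure D4:**
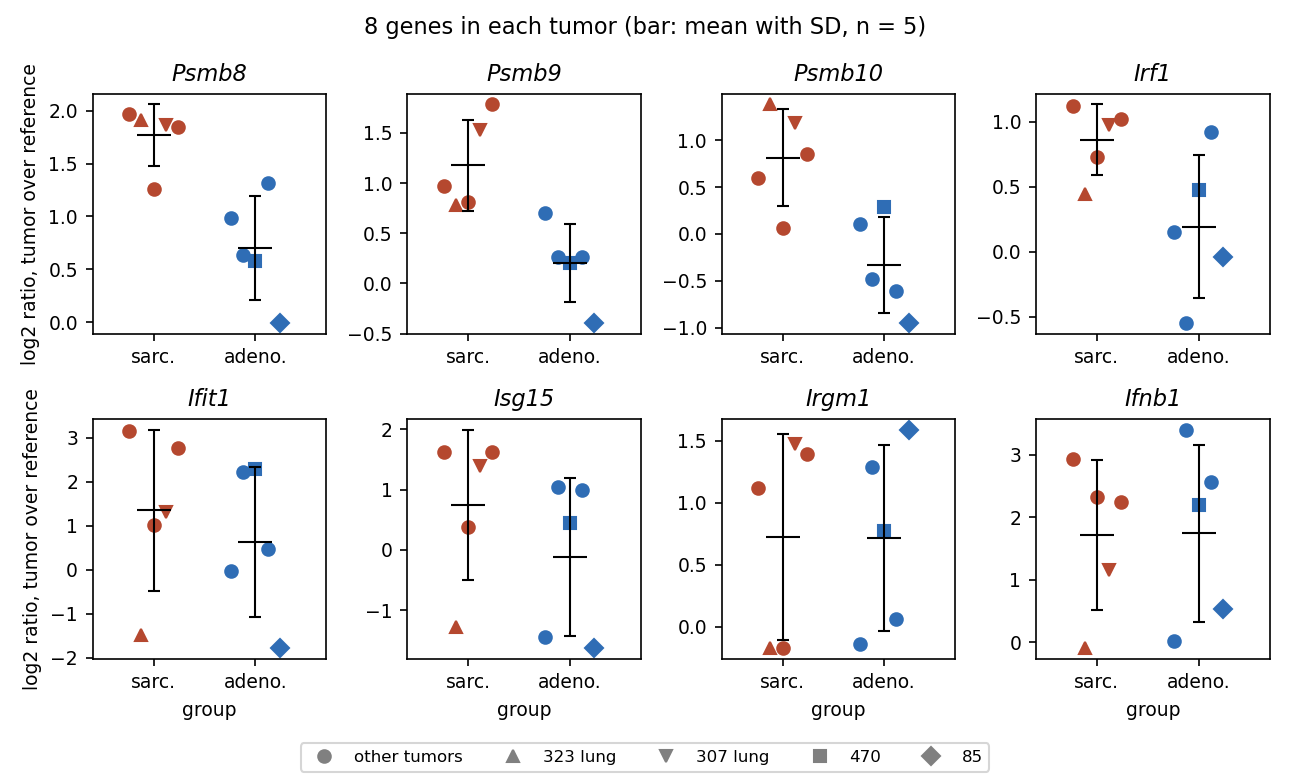
Log2 ratios (tumor over reference) of 8 genes in 5 sarcomatoid (sarc.) and 5 adenocarcinoma (adeno.) tumors, each point 1 tumor, with the mean and SD of each group; the lung tumors and tumors 470 and 85 have symbols of their own. Psmb9 shows no overlap and Psmb8 nearly none, Ifit1 and Isg15 are low in the lung tumor of 323 and in tumor 85, and Irgm1 is highest in tumor 85.

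Leukocyte markers moved with the group, and their part in the differences was not tested. All 4 pan-leukocyte markers and all 10 macrophage and monocyte markers had a higher mean in sarcomatoid carcinoma. The per-tumor median of the pan-leukocyte list ran from -0.00 to 1.05 in sarcomatoid carcinoma and from -1.50 to 0.14 in adenocarcinoma. That of the macrophage list ran from 2.81 to 3.63 and from -0.03 to 3.004. Tumor 470 was the highest adenocarcinoma in both lists. Without it the highest were -0.14 (tumor 105) and 2.06 (tumor 17), below every sarcomatoid tumor. Over the 10 T and NK cell markers the ranges were 0.26 to 2.07 and 0.16 to 1.23, with 8 higher in sarcomatoid carcinoma. Each of these markers was well above background in at least 7 tumors, and none had an adjusted p under 0.05. Among the other lists, 2 of 6 B and plasma cell, 3 of 7 dendritic cell, 2 of 4 neutrophil and 4 of 5 endothelial markers had a higher mean in sarcomatoid carcinoma. None of the 10 epithelial markers did (median difference -2.56), and all 10 fibroblast and mesenchymal markers did (0.74). Across the 10 tumors the median of the interferon response genes was correlated with that of each marker list, as a description over both groups. The Pearson r was 0.405 for the pan-leukocyte list, 0.468 for macrophage, 0.464 for T and NK cell and 0.508 for dendritic cell. It was 0.425 for fibroblast and mesenchymal, 0.190 for B and plasma cell, 0.161 for endothelial and -0.032 for neutrophil. For epithelial it was -0.168 and for lung epithelium -0.337. The largest in size was that of proliferation (-0.759). The pan-leukocyte median was lowest in tumor 85 (-1.50) and highest in tumor 594 (1.05), the tumors with the lowest and the highest median of the interferon response genes. It was -1.43 in tumor 131 and 0.70 in the lung tumor of 323, where those genes were high and low. Proliferation markers had their highest medians in tumor 85 (-0.31) and the lung tumor of 323 (-0.59), against -1.59 to -0.78 in the others.

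The lung tumors, grown from injected cell lines, were compared with the mammary sarcomatoid tumors, which were primary tumors. Site of growth, culture as a cell line, injection and scan batch cannot be told apart in this comparison. None of the 35 genes passed limma's adjusted threshold, against 0.0249% of all probes, and 0 had an unadjusted p under 0.05, against 10.7% of all probes. By sign, 30 of the 35 were lower in the lung tumors, with a median difference of -0.83 (0.03 over all probes). Markers of several cell types were lower there too. They included all 10 epithelial markers (median difference -3.59) and 6 of 10 macrophage markers (-0.32). Also lower were all 6 B and plasma cell markers (-0.76) and 8 of 10 T and NK cell markers (-1.06). Among them were Cd3d (-4.15, SE 0.93) and Cd8a (-2.47, SE 0.66) of T cells, well above background on 8 and 7 arrays. Cd4 (0.63, SE 0.36) and Klrb1c (0.58, SE 0.43) of the T and NK cell list were higher. None of these passed the adjusted threshold. Endothelial (-0.66), dendritic cell (-0.38) and pan-leukocyte (-0.29) medians were lower. Fibroblast and mesenchymal (0.05), neutrophil (0.12), lung epithelium (0.30) and proliferation (0.23) medians were not. The part of cell type markers in the differences was not tested. Without tumor 470, which enters this fit only through the shared spread, 0.209% of all probes passed and none of the 35 genes did. The largest were Ifit1 (-2.40, SE 1.21), Rsad2 (-1.75, SE 1.08) and Iigp1 (-1.50, SE 1.25). Gbp2 (0.78, SE 0.72), Psmb8 (0.19, SE 0.42) and Ddx58 (0.08, SE 0.56) were at the other end.

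The 2 pairs went opposite ways. In the lung tumor of 323, 34 of the 35 genes were below tumor 323, with a median difference of -1.83, while 49.1% of all probes were lower. In the lung tumor of 307, 33 of the 35 were above tumor 307, with a median difference of 0.72, while 49.0% of all probes were higher. Both held for 32 genes. Ifit1 was 4.64 lower in the lung tumor of 323 than in tumor 323 and 0.29 higher in the lung tumor of 307 than in tumor 307, and Ifi44 differed by -3.10 and 2.28. Psmb8 (-0.06 and 0.61), Psmb9 (-0.19 and 0.72) and Gbp2 (-0.34 and 1.95) were nearly level in the first pair and higher in the lung tumor in the second. With 1 tumor at each end of a pair there is no replicate for either. Tumor 323 and its lung tumor were read in different scan batches, as were tumor 307 and its own. Batch, site, culture as a cell line and injection therefore cannot be told apart here. Markers of lung epithelium had medians of -0.08 and 0.77 in the lung tumors and of -0.18 to 0.94 in the mammary tumors. Without the lung tumor of 323, the median lung minus mammary difference was 0.13, with 19 of 35 genes higher.

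**Figure D5:**
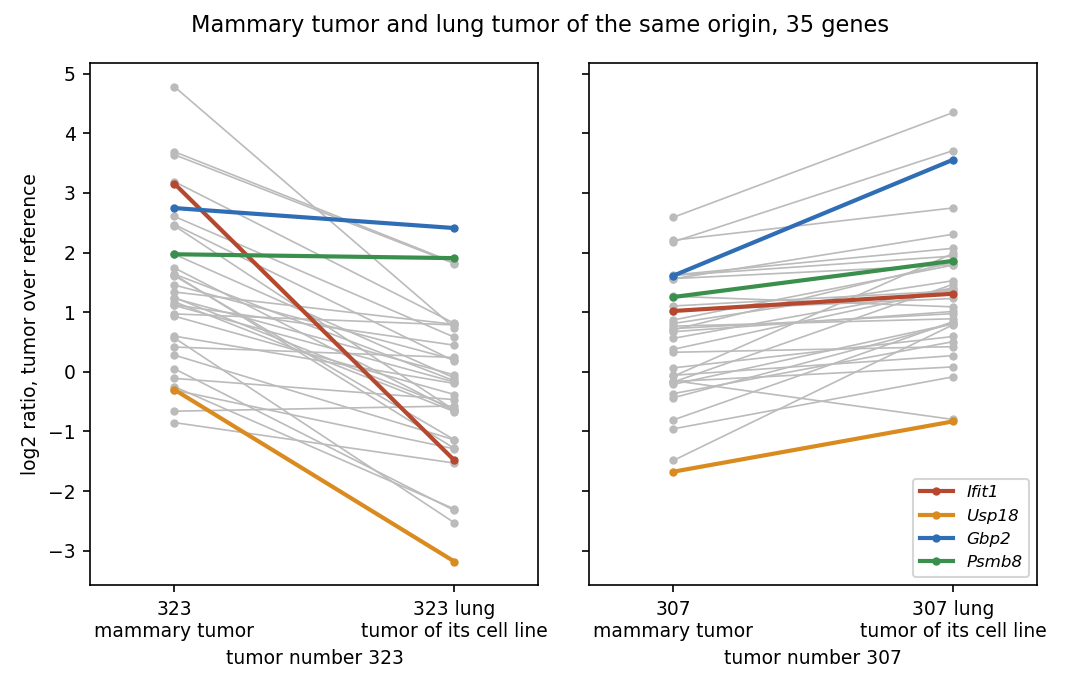
Log2 ratios (tumor over reference) of 35 genes in tumors 323 and 307 and in the lung tumor grown from a cell line of each; each line joins 1 gene. Lines slope down for 34 genes in the first pair and up for 33 in the second, and Psmb8 and Gbp2 are close to level in the first.

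Among mammary tumors alone, 34 of the 35 genes had a higher mean in the 3 sarcomatoid tumors than in the 5 adenocarcinomas, as had 49.0% of all probes. The median difference was 0.61 (-0.01 over all probes). Without tumor 85 it was 0.18, with 28 of the 35 higher. The 3 sarcomatoid tumors were in scan batches 1 and 2, and adenocarcinomas 131, 17 and 85 in batch 3, so group and batch are partly mixed. None passed limma's adjusted threshold, as no probe did, and 5 had an unadjusted p under 0.05 (14.3%, against 8.6% of all probes): Irf1, Ifit2, Oas3, Psmb8 and Psmb9. Ifit2 differed by 1.78 (SE 0.66) and Oas3, an enzyme of the RNA decay pathway, by 0.82 (SE 0.35). Without tumor 470, 0.522% of all probes passed the adjusted threshold and none of the 35 genes did, 5 of them had an unadjusted p under 0.05 against 15.1% of all probes, and the median difference was 0.69. All 3 comparisons share samples, so they are not independent of each other.

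Other genes of the interferon pathway were read from 7 lists by role, and 99 of these genes had a probe. None had a limma adjusted p under 0.05, 14 had an unadjusted p under 0.05 (13 of them higher in sarcomatoid carcinoma) against 9.23% of all probes, and 74 had a higher mean there, against 49.8% of all probes, with a median difference of 0.25. The groups did not overlap for 2 of them, Irf5 and Ptpn6, and for 1.33% of all probes. Among 14 interferon ligands, Ifng, the gene of interferon gamma, was at 3.04, 0.28, 1.68, 1.49 and 1.95 in the sarcomatoid tumors and at 1.68, -0.06, 2.08, 0.59 and -0.62 in the adenocarcinomas, a difference of 0.95 (SE 0.59). It was well above background in 6 tumors and not in the lung tumor of 323 or in tumors 131, 17 and 85. Ifnb1, the gene of interferon beta, chosen after its values were seen, was at 2.93, -0.09, 2.33, 1.16 and 2.25 in the sarcomatoid tumors and at 0.02, 3.40, 2.19, 2.55 and 0.54 in the adenocarcinomas. It was not well above background in the lung tumor of 323 or in tumor 85. In tumor 131 Ifnb1 was thus at its highest and Ifng not well above background, and in tumor 105 Ifng was near the middle and Ifnb1 low. Of 9 receptors and kinases, Ifnlr1, the interferon lambda receptor of epithelial cells, had the largest difference (-1.12, SE 0.80). Of 10 further IRF and STAT genes, Irf5, a factor of macrophages, did not overlap between the groups (1.32, SE 0.40, limma adjusted p = 0.387).

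Of 14 genes that induce interferon, Tlr7, the receptor for single-stranded RNA in endosomes, had the largest difference (2.34, SE 0.47, limma adjusted p = 0.330). Without tumor 470, Tlr7 (2.71, SE 0.39) and Tlr4 (1.93, SE 0.38), the receptor for bacterial endotoxin, had limma adjusted p-values of 0.0177 and 0.0363. They were the only 2 of the 99 to pass in that fit, in which 1.54% of all probes passed, against 0% with tumor 470 kept. Tumor 470 was singled out by its marker values in these same data, where it was the adenocarcinoma nearest the sarcomatoid group. The adjusted p-values without it are therefore a description and not a separate test. Of 7 negative regulators, the phosphatase gene Ptpn6 did not overlap between the groups (0.92, SE 0.27), and Socs1, an inhibitor of JAK kinases, differed by 1.42 (SE 0.57). Of 38 other induced genes, 31 were higher in sarcomatoid carcinoma, led by Ifi203 (1.37, SE 0.55). Of 7 partners in antigen processing, Psmb10, the remaining inducible subunit of the immunoproteasome, differed by 1.14 (SE 0.33, limma adjusted p = 0.363, exact permutation p = 0.0238).

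Outside the 36 genes, those whose pattern over the 10 tumors was most like the median of the interferon response genes were Phf11d (Pearson r = 0.971), Phf11a (0.963), Oas1f (0.960), Rnf213 (0.935) and Irgm2 (0.906), picked as the highest of all named genes. The median over all probes was -0.017. Phf11d was at 2.47 in tumor 594 and -1.61 in tumor 85, and Rnf213 at 1.68 in tumor 323 and -0.38 in tumor 85.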

How the data were processed

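RNA of 10 mouse tumors was hybridised to 2-colour Agilent arrays, 1 array per tumor. The deposited table holds log2 ratios that the authors normalized with limma (version not given in the sources used here). The deposited scanner files hold spot intensity in both channels, and, per the file headers, the log10 ratio of red over green, from which detection above background, saturation, the version of the extraction protocol and the direction of the ratio were read. Each table column correlated with the log ratio of its own array at r = 0.868 to 0.926. Its scale is log2, its columns are centred near 0, and its direction was taken from the study's account of epithelial and mesenchymal genes, since the dye in the labels points the other way. Of the 42515 rows of the table, 40196 were gene probes of the array. Probes were named by accession (22683), symbol (6440) or synonym (3020) through RefSeq gene tables, and 8053 had no name. A gene with several probes is shown by the probe with the highest mean red signal.

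Groups were taken from the labels. The fit used limma 3.58.1 in R 4.3.3 (lmFit and eBayes on all 40196 probes, Benjamini-Hochberg adjustment, threshold 0.05), with 3 contrasts: sarcomatoid against adenocarcinoma, lung against mammary sarcomatoid tumors, and mammary sarcomatoid tumors against adenocarcinoma. Exact permutation tests were two-sided. Tables and figures used Python 3.11.15, numpy 2.4.6, pandas 2.3.3 and matplotlib 3.10.9. The fit was tested on simulated data. P-values treat the tumors as separate samples, although 2 lung tumors share an origin with mammary tumors, and the number of arrays limits the precision.

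The genes and lists were chosen with earlier results of these data known. Values per tumor are given for genes that passed a test or did not overlap between groups, for the 5 largest and 5 smallest differences between sarcomatoid carcinoma and adenocarcinoma, for the 5 largest SDs, for the 3 largest and 3 smallest lung differences and for the brightest gene of each role, and genes are otherwise given by range. Of the pathway genes, those that passed or did not overlap and the largest difference in each list are named. Some items that this rule names are not reported here. Alternatives were median centring, quantile normalization, a filter on dim probes (at least 5 arrays above background), scan batch as a term, slide or tumor number as a block, 1 value per tumor number, the mean over probes, normexp (offset 50) with loess on the scanner files, and each tumor left out.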

Additional observations from a re-analysis of the deposited data

Results flagged for a closer look

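In each group of 5 tumors, the lowest and highest values were set against the rest by Dixon's test (critical value 0.71). Of 86 combinations of a value and a group, 4 passed, and 4.3 would by chance. Stat2 was at -1.72 in adenocarcinoma 85, against 0.04 to 0.58 in the other adenocarcinomas. Parp14, a regulator of STAT signalling, was at -0.53 in the same tumor, against 1.63 to 2.14. Ifit3 was at -0.64 in the lung tumor of 323, against 1.62 to 2.45 in the other sarcomatoid tumors. Psmb8 was at 1.26 in sarcomatoid tumor 307, against 1.84 to 1.97.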

How the results depend on the processing

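No interferon response gene passed the adjusted threshold under any alternative run (0 of 1925 values of single genes, lowest limma adjusted p = 0.142, without tumor 470). The median difference between sarcomatoid carcinoma and adenocarcinoma (0.30) ran from -0.02 (without tumor 85) to 0.69 (without the lung tumor of 323) when 1 tumor was left out, and from -0.07 (within scan batch 3) to 0.52 (within scan batch 2) under the others. The median lung minus mammary difference (-0.83) ran from -1.56 without the lung tumor of 307 to 0.13 without the lung tumor of 323, where its direction turned. With tumor number as a replicate block it was -0.41, which is also the value without tumor 594, which has no pair and does not enter the blocked comparison. The block changed no call among the 35 genes, and over all probes the calls went from 10 to 0. Among mammary tumors the median (0.61) ran from 0.18 without tumor 85 to 0.99 without tumor 307. Of the other pathway genes, 0 passed, and 0 to 2 with 1 tumor left out (2 without tumor 470, where 1.54% of all probes passed). Within-batch values have no test. Tumor medians had a pooled SD of 0.756 within groups, above the median difference of 0.30 between sarcomatoid carcinoma and adenocarcinoma. When a lung tumor is left out, the other is assumed to vary like the other tumors.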
